A study of Mus musculus with 7 samples.

Results

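The genes described here are 9 kinases of the MAP3K family that stand at the top of the Jnk cascade: Map3k1, Map3k4, Map3k5, Map3k7, Map3k9, Map3k10, Map3k11, Map3k12 and Map3k13. They were taken by name, and every probe that the platform annotation gives to one of them was used. Of the 25697 probes on the array, 9 read 7 of the 9 genes, 3 of these probes reading Map3k12. The annotation used here lists no probe for Map3k5 (ASK1) or Map3k10 (MLK2), so no value is given for either. Of the 9 probes, 8 (6 genes) passed the filter on dim signal and were among the 14067 probes tested; the Map3k9 probe did not pass.

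The study compared the arcuate nucleus, a hypothalamic region whose Npy/Agrp and Pomc neurons control feeding, between 4 Dusp8-deficient mice and 3 control mice. All were male C57BL/6J littermates of 40 weeks of age that left chow at 8 to 10 weeks and then spent 30 weeks on a high-fat diet (45% of energy as fat). Amplified, biotin-labelled total RNA of each mouse was read on its own Illumina bead array, on which each probe gives a fluorescence signal. The sources used here do not give the allele or the cells in which Dusp8 is lost, and the numbers in the array names (ko_108, ko_125, ko_148 and ko_168, and wt_136, wt_145 and wt_177) are headings of the signal table.

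The Jnk cascade is built in tiers. A MAP3K is switched on by stress, cytokines or axon injury and phosphorylates the MAP2Ks Map2k4 and Map2k7, and these phosphorylate the Jnk kinases. Dusp8 acts at the bottom of the cascade, where it takes phosphate off the Jnk and p38 kinases. In the hypothalamus, Jnk activity is known to blunt insulin and leptin signalling in diet-induced obesity. The array reads mRNA, and kinase activity was not measured.

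Dusp8 itself followed the labels. Its signal was 104, 77, 94 and 98 units in the Dusp8-deficient arrays, against 624, 558 and 540 units in the controls, a 5.72-fold lower level (limma, adjusted p = 0.00963). With 1 array left out the adjusted p was 0.05 or more in 5 of 7 fits, from 0.0560 without ko_168 to 0.111 without wt_177, while the log2 fold change stayed between -2.65 and -2.40. It was the only 1 of the 14067 tested probes to pass the threshold of an adjusted p below 0.05 (limma with Benjamini-Hochberg adjustment over all tested probes), and 677 probes had an unadjusted p below 0.05. Between 12749 and 13976 probes were detected per Dusp8-deficient array and between 12295 and 13304 per control array, and the mean signal was 58.0 to 74.9 units in Dusp8-deficient arrays and 60.6 to 72.2 units in controls. Of 12 arcuate neuron markers, 9 were tested; their mean log2 level was 6.04 to 7.44 in the Dusp8-deficient arrays and 7.34 to 7.54 in the controls, and 4 of the 9 were not detected in ko_108. In the same array all 12 tested oligodendrocyte markers were at their highest, with list means of 7.19 to 8.78 in Dusp8-deficient arrays and 7.01 to 7.50 in controls. The 3 tested pituitary markers had list means of 4.21 to 6.40 in Dusp8-deficient arrays and 4.49 to 5.17 in controls. All 3 were detected in ko_125 and ko_148 and none in ko_108. In ko_168, 1 of them was not detected, and in wt_136, wt_145 and wt_177 the number not detected was 2, 1 and 2. In whole tissue, fewer cells of a type and less RNA per cell cannot be told apart, and the part of these markers in the results below was not tested.

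No MAP3K probe passed the test. The count is 0 of 8 tested probes, against 0.00711% of all tested probes, and by unadjusted p below 0.05 it is 1 of 8 (Map3k1), against 4.81% of all tested probes. The 2 groups overlapped on each of the 8 probes, whereas they did not overlap for 5.57% of all tested probes. The difference was above 0 for 6 of the 8 probes and below 0 for 2, while 49.7% of all tested probes were above 0. Of the 6, Map3k13 and the dimmest Map3k12 probe were each detected in 4 Dusp8-deficient arrays and 1 control, and Map3k11 in 4 and 2. These probes reached the filter of 3 arrays through the group in which they were higher, so the count of signs is not read as a result. The median log2 fold change of the 8 probes was 0.18, beside -0.0019 over all tested probes. With 1 array left out it ran from 0.10 without wt_145 and 0.11 without ko_168 to 0.27 without ko_108, and it was 0.10 over the probes detected on all arrays. Each of these 8 had an adjusted p of 0.996 (limma, 4 against 3 arrays), so their adjusted p is not repeated below.

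**Figure D1:**
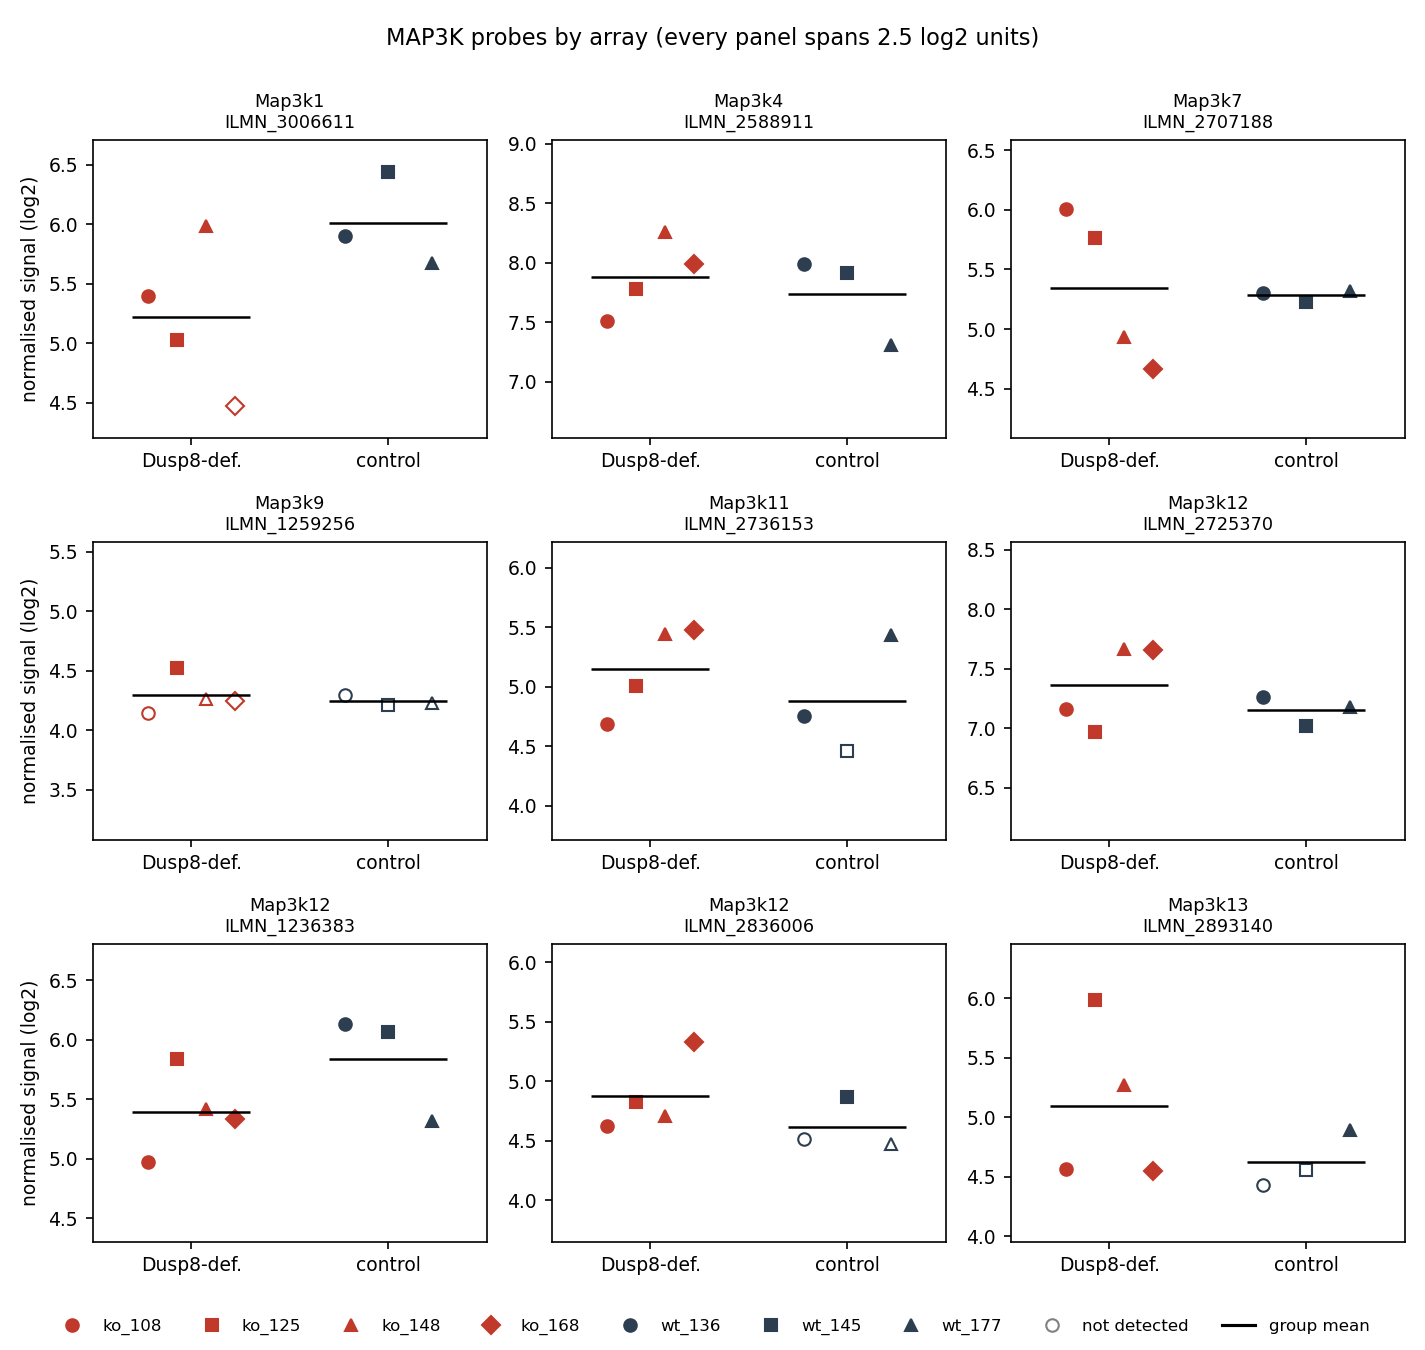
Normalised log2 signal of each of the 9 MAP3K probes (vertical axis, every panel 2.5 log2 units tall) in the 4 Dusp8-deficient arrays on the left and the 3 control arrays on the right; bars are group means and open symbols mark arrays in which the probe was not detected. The groups overlap in every panel, and the Map3k7 controls lie between 5.23 and 5.32 while the Dusp8-deficient arrays spread from 4.66 to 6.01.

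Map3k1 had the largest difference among the tested MAP3K probes. It encodes MEKK1, a large kinase that also carries a RING-type ubiquitin ligase domain and activates Jnk through Map2k4. The signal of its probe, ILMN_3006611, was 23, 23, 52 and 5 units in the Dusp8-deficient arrays ko_108, ko_125, ko_148 and ko_168, against 46, 69 and 31 units in the controls wt_136, wt_145 and wt_177. The values of 3 Dusp8-deficient arrays lay below all controls, but ko_148 lay above 2 of the 3 controls, and in ko_168 the probe was not detected. After normalisation the mean log2 level was 5.22 ± 0.63 (SD, n = 4) in Dusp8-deficient mice and 6.01 ± 0.39 (SD, n = 3) in controls. The log2 fold change was -0.79 (SE 0.35, 95% interval -1.56 to -0.01), a level 1.73-fold lower, with an unadjusted p of 0.0470 in limma. That p ranked 630 among the 14067 tested probes, and its side of 0.05 was not stable. It was above 0.05 in 5 of 7 fits with 1 array left out, running from 0.00901 without ko_148 to 0.173 without wt_145, and in 7 of 10 other alternatives, which gave 0.0441 to 0.176. The fold change stayed below 0 with any 1 array left out, from -1.03 without ko_148 to -0.54 without ko_168.

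Map3k4 encodes MEKK4, which Gadd45 proteins bind and activate and which feeds both the Jnk and the p38 branch. Its probe, ILMN_2588911, was detected on all 7 arrays. The signal was 140, 222, 322 and 251 units in the Dusp8-deficient arrays and 252, 223 and 126 units in the controls. The highest array was ko_148 and the lowest wt_177, and the groups overlapped through most of their range. The log2 levels averaged 7.88 ± 0.32 (SD, n = 4) in Dusp8-deficient mice and 7.74 ± 0.38 (SD, n = 3) in controls, a log2 fold change of 0.15 (SE 0.25, 95% interval -0.42 to 0.72). Without wt_177 the log2 fold change was -0.07.

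Map3k7 encodes TAK1, the kinase that relays interleukin-1, Toll-like receptor and TGF-beta signals to Jnk and to NF-kB, in a complex with Tab proteins. Its probe, ILMN_2707188, gave 43, 48, 16 and 8 units in the Dusp8-deficient arrays, against 25, 21 and 21 units in the controls. The Dusp8-deficient arrays fell to either side of the controls, with ko_108 and ko_125 above all 3 and ko_148 and ko_168 below all 3. The group means were close, at 5.34 ± 0.65 (SD, n = 4) in Dusp8-deficient mice and 5.28 ± 0.05 (SD, n = 3) in controls, with a log2 fold change of 0.06 (SE 0.32, 95% interval -0.66 to 0.78). It was -0.16 without ko_108, the array with the high oligodendrocyte markers, and 0.28 without ko_168. No test of the spread was made.

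The mixed-lineage kinases Map3k9, Map3k10 and Map3k11 (MLK1, MLK2 and MLK3) are switched on by the small GTPases Rac1 and Cdc42. Map3k9 was at the edge of detection. Its probe, ILMN_1259256, read -7, 9, 0 and -1 units in the Dusp8-deficient arrays and 1, -3 and -2 units in the controls, and was detected only in ko_125, so it was not well above background in any control and no fold is given. The Map3k11 probe, ILMN_2736153, read 8, 22, 30 and 25 units in the Dusp8-deficient arrays, against 12, 5 and 24 units in the controls, and was not detected in wt_145. The control wt_177 lay among the higher Dusp8-deficient arrays. Its log2 level was 5.15 ± 0.38 (SD, n = 4) in Dusp8-deficient mice and 4.88 ± 0.50 (SD, n = 3) in controls, a log2 fold change of 0.27 (SE 0.29, 95% interval -0.38 to 0.92). With 1 array left out the value ran from 0.06 without wt_145 to 0.56 without wt_177.

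Map3k12 and Map3k13 encode the leucine zipper kinases DLK and LZK, which drive the Jnk response of injured axons and are well known in neurons. Map3k12 was read by 3 probes that the annotation assigns to the same gene. The brightest, ILMN_2725370, gave 107, 125, 209 and 190 units in the Dusp8-deficient arrays, against 143, 111 and 115 units in the controls. The arrays ko_148 and ko_168 were above all controls, and ko_125 was the lowest of the 7 after normalisation. The log2 level was 7.36 ± 0.35 (SD, n = 4) in Dusp8-deficient mice and 7.15 ± 0.12 (SD, n = 3) in controls, with a log2 fold change of 0.21 (SE 0.23, 95% interval -0.31 to 0.73).

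Of the other Map3k12 probes, ILMN_1236383 had the opposite sign and ILMN_2836006 the same sign as the brightest. ILMN_1236383 read 13, 51, 29 and 21 units in the Dusp8-deficient arrays, against 57, 50 and 21 units in the controls. Here ko_108 was the lowest array, wt_136 the highest, and wt_177 lay with the lower Dusp8-deficient arrays. Its log2 fold change was -0.45 (SE 0.28, 95% interval -1.07 to 0.17), from means of 5.39 ± 0.35 (SD, n = 4) in Dusp8-deficient mice and 5.84 ± 0.45 (SD, n = 3) in controls. The dimmest, ILMN_2836006, read 7, 17, 11 and 21 units in the Dusp8-deficient arrays and 7, 13 and 5 units in the controls, and was detected in 1 of 3 controls. Detected in all 4 Dusp8-deficient arrays, it would have passed the filter through them alone. It was highest in ko_168 and its log2 fold change was 0.26 (SE 0.23, 95% interval -0.26 to 0.77).

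The disagreement between the Map3k12 probes was itself compared between the genotypes, over 3 pairs of probes, of which the 2 with ILMN_2836006 are not described because that probe was mostly not detected in controls. The log2 signal of ILMN_2725370 minus that of ILMN_1236383 was 1.97 ± 0.57 (SD, n = 4) in the Dusp8-deficient arrays and 1.32 ± 0.48 (SD, n = 3) in the controls, a difference of 0.65 (exact permutation p = 0.200, two-sided, adjusted over the 3 pairs 0.300). The smallest p that the 35 splits of 7 arrays allow is 0.0286, or 0.0857 for a single pair after adjustment, so 1 pair alone could not have passed and the probes are not shown to act alike. The place of each probe on the Map3k12 transcript was not used here.

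The Map3k13 probe, ILMN_2893140, read 6, 58, 25 and 6 units in the Dusp8-deficient arrays, against 5, 7 and 12 units in the controls, and was detected in all 4 Dusp8-deficient arrays and in 1 of 3 controls. It would have passed the filter through the Dusp8-deficient arrays alone. The arrays ko_125 and ko_148 lay above all controls, while ko_108 and ko_168 lay within the range of the controls. The log2 level was 5.09 ± 0.68 (SD, n = 4) in Dusp8-deficient mice and 4.62 ± 0.24 (SD, n = 3) in controls, a log2 fold change of 0.47 (SE 0.35, 95% interval -0.31 to 1.24). Without ko_125 it was 0.16.

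**Figure D2:**
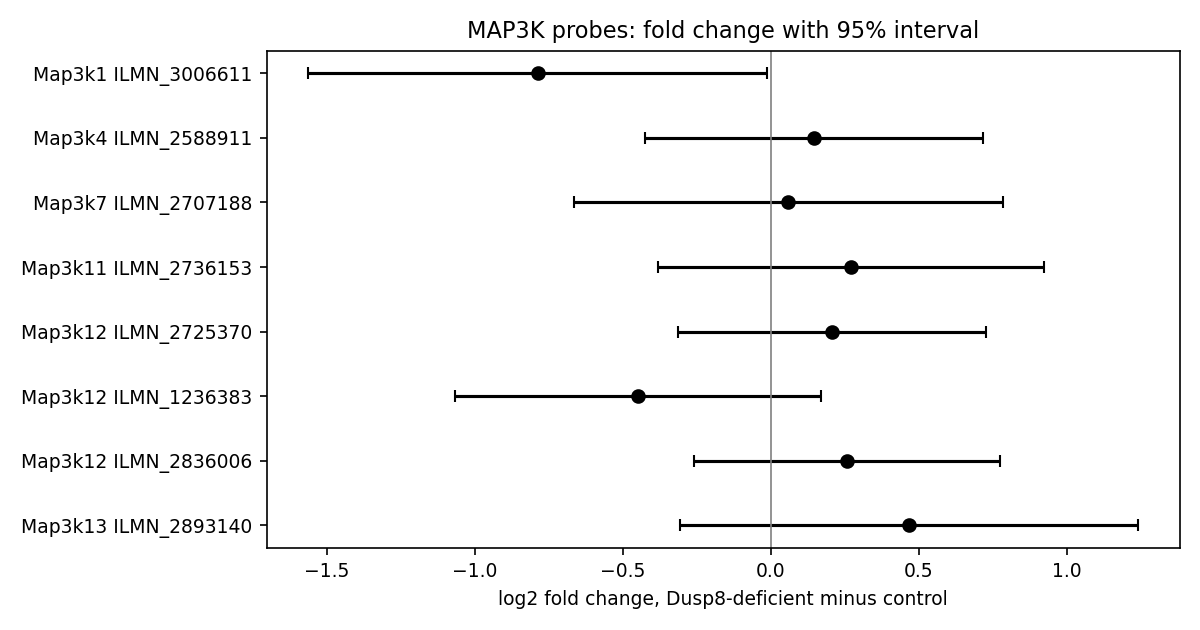
Log2 fold change of the 8 tested MAP3K probes (horizontal axis, Dusp8-deficient minus control; points are estimates and bars are 95% intervals from limma, 4 against 3 arrays). The interval of Map3k1 ends at -0.01, and the other 7 intervals span 0.

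The 95% intervals give the range of change that the normalised log2 values of each probe allow. For dim probes these values depend on the offset and background correction. For Map3k13 the log2 fold change of 0.47 became 0.24 with an offset of 50 and 0.53 with no further background correction. For the brighter Map3k4 it was 0.15, 0.13 and 0.15 in the same order. The limits for dim probes are therefore not read as bounds on the change in mRNA. All intervals are per probe and not adjusted for the number of probes tested. An interval can leave out 0, as for Map3k1, on a probe that does not pass the adjusted threshold. A true change larger than the reach of an interval to 1 side could still have missed that threshold. The median 95% interval over all tested probes reached 0.57 log2 units to each side. Among the MAP3K probes the interval extended to a level 0.339 times that of controls for Map3k1 and 2.36 times for Map3k13, while for Map3k4 it ran from 0.746 to 1.64 times and for the brightest Map3k12 probe from 0.804 to 1.66 times. The residual spread between arrays of 1 genotype was 0.55 log2 units for Map3k1 and Map3k13 and 0.50 for Map3k7, beside a median of 0.34 over all tested probes, and 0.29 for the brightest Map3k12 probe.

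The array ko_148 was high on most of the family. It lay 0.38 to 0.44 log2 units above the probe mean on 5 of the 8 tested probes (Map3k1, Map3k4, Map3k11, Map3k13 and the brightest Map3k12 probe) and below it on the other 3, with a median deviation of 0.39. Of the 8 tested probes, ko_148 and ko_168 each held the highest value of 2, and ko_168 and wt_177 the lowest value of 2 each. The mean deviation of an array from the probe means was -0.16, 0.12, 0.18 and -0.10 log2 units in ko_108, ko_125, ko_148 and ko_168, against 0.01, 0.04 and -0.08 in wt_136, wt_145 and wt_177. The controls lay inside the range of the Dusp8-deficient arrays.

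**Figure D3:**
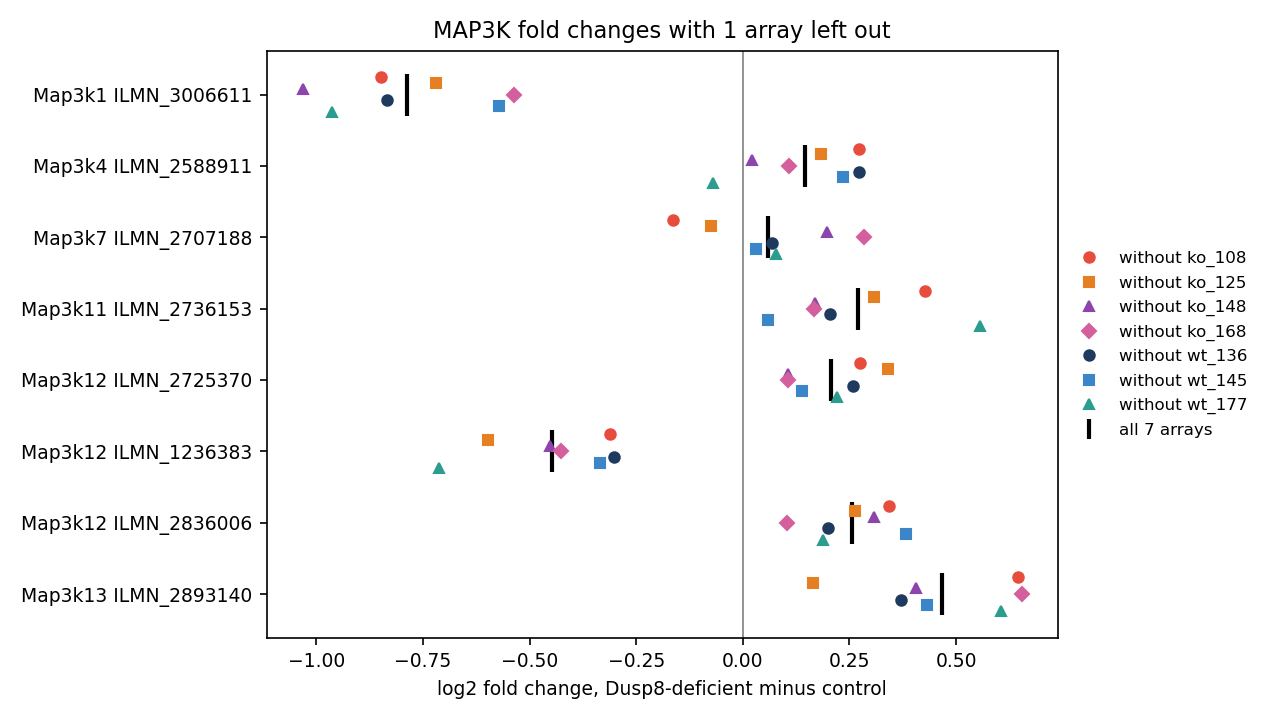
Log2 fold change of the 8 tested MAP3K probes (horizontal axis, Dusp8-deficient minus control) with all 7 arrays (black bar) and with each array left out in turn (symbols). Map3k4 and Map3k7 take values on either side of 0, and the other 6 probes keep their sign in these 7 fits.

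For the 3 probes that varied most over the 7 arrays, the genes with the most similar pattern were sought by the root mean square difference of the centred log2 values. Nearest to Map3k1 were Fsd2, Fank1 and Arl14ep, at 0.24 log2 units each, where the median probe was at 0.68. Nearest to Map3k13 were Ufsp2, Atg2b and Mdm1, at 0.19 to 0.20 log2 units against a median of 0.61. Nearest to Map3k7 were Ints3 at 0.07, Paxbp1 at 0.12 and Myo9a at 0.13 log2 units, against a median of 0.52. These are descriptions of 7 arrays, picked as the nearest of 14067 probes.

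The genes around the family were taken from 6 lists of 94 genes in all: other kinases of the same tier, the MAP4Ks above them, proteins that bind or inhibit the members, the MAP2K, Jnk and p38 kinases below them, Jnk scaffolds and Jnk targets. Of these, 60 were tested on their brightest probe, 28 above 0 and 32 below 0, with a median log2 fold change of -0.03. None passed (limma, adjusted over all tested probes). An unadjusted p below 0.05 was found for 3 (5%), against 4.81% of all tested probes. The groups did not overlap for 4 (6.67%), against 5.57% of all tested probes. Both shares are close to those over all tested probes, so neither count is read as a result.

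**Figure D4:**
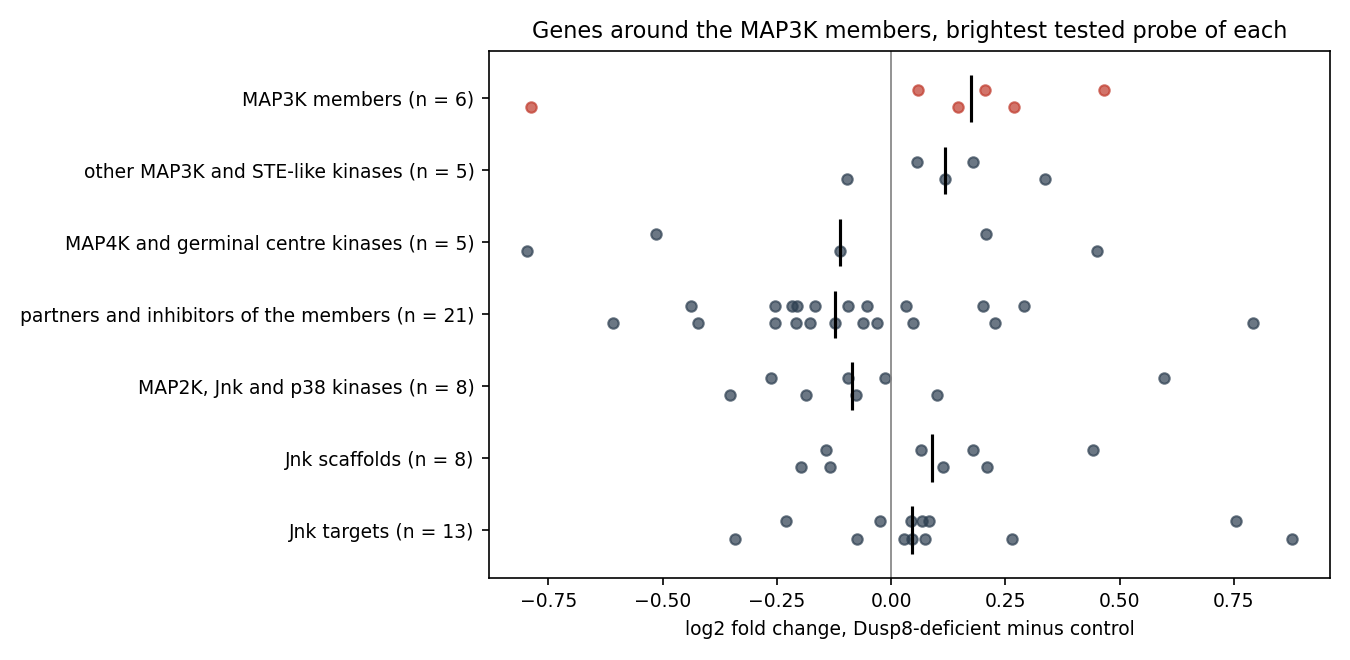
Log2 fold change (horizontal axis, Dusp8-deficient minus control) of the brightest tested probe of each gene, for the 6 tested MAP3K members in the top row and for the 6 lists around them; each point is a gene and the vertical bar is the list median. The medians lie between -0.12 and 0.18, and none of these genes passed the test.

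Among proteins that act on the members, 6 were above 0 and 15 below 0, with a median log2 fold change of -0.12. Usp9x, a deubiquitinase that keeps DLK from being degraded, had the smallest p of the list. Its brightest probe, ILMN_2470287, gave 55, 63, 30 and 32 units in the Dusp8-deficient arrays, against 19, 20 and 14 units in the controls, with each Dusp8-deficient array above each control. The log2 fold change was 0.79 (SE 0.24), with an unadjusted p of 0.00799 and an adjusted p of 0.996 (limma). Of its other tested probes, ILMN_2503651 read 0.86 (SE 0.33) and ILMN_2510446 read 0.04 (SE 0.25). Both were dim in the controls, with a mean log2 level of 4.51 each, against 5.09 for the brightest probe.

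Mycbp2, the PHR1 ubiquitin ligase that marks DLK for degradation, was the other gene of this list without overlap. That makes 2 of 21 tested genes, against 5.57% of all tested probes. The brightest Mycbp2 probe gave 64, 114, 77 and 100 units in the Dusp8-deficient arrays, against 126, 111 and 115 units in the controls. On the normalised scale each Dusp8-deficient array lay below each control, although ko_125 had more raw signal than wt_145. The log2 fold change was -0.44 (SE 0.20, unadjusted p = 0.0553, adjusted p = 0.996, limma), and a second probe read -0.36 (SE 0.30). These values stand beside a Map3k12 mRNA whose 3 probes read 0.21, -0.45 and 0.26. A link between these genes was not tested, and DLK protein was not measured.

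Txn2, the mitochondrial thioredoxin, which binds and restrains ASK1, gave 20, 31, 32 and 39 units in the Dusp8-deficient arrays, against 73, 40 and 45 units in the controls. After normalisation ko_168 lay just above wt_145, and the other Dusp8-deficient arrays lay below all controls. Its log2 fold change was -0.61 (SE 0.23, unadjusted p = 0.0263, adjusted p = 0.996, limma). The Tab1, Tab2 and Tab3 partners of TAK1 read 0.23, -0.12 and -0.22, Gadd45a and Gadd45g, which activate MEKK4, read 0.05 and -0.05, and the GTPases Rac1 and Cdc42, which switch on the mixed-lineage kinases, read -0.25 and 0.20.

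**Figure D5:**
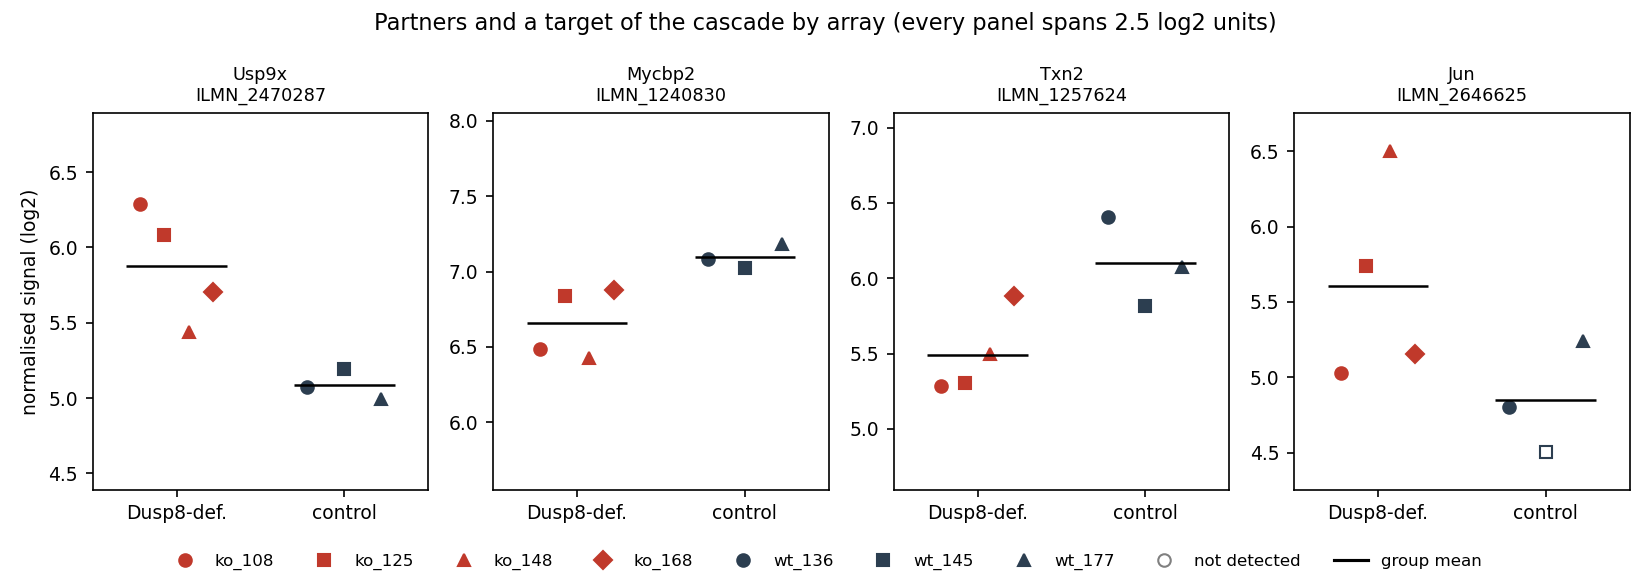
Normalised log2 signal (vertical axis, every panel 2.5 log2 units tall) of Usp9x, Mycbp2, Txn2 and the Jnk target Jun in the 4 Dusp8-deficient arrays on the left and the 3 control arrays on the right; bars are group means and open symbols mark arrays in which the probe was not detected. Usp9x and Mycbp2 show no overlap between the groups, Txn2 and Jun overlap, and all 4 have an adjusted p of 0.996. All 4 were among the 3 genes of smallest p in their lists, so a separation of the groups partly restates that choice.

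At the same tier, 4 of 5 tested kinases outside the 9 members were above 0 and 1 below 0, with a median log2 fold change of 0.12. That median was -0.068 without wt_177, -0.018 without ko_125 and up to 0.24 with another array left out. Araf, of the Erk cascade, read 0.34 (SE 0.40), Map3k2 (MEKK2) read 0.18 (SE 0.35) and Map3k3 (MEKK3) read 0.12 (SE 0.25). One tier up, 2 of 5 tested MAP4K and related kinases were above 0 and 3 below 0, with a median of -0.11. Here too the sign turned, to 0.040 without wt_145 and 0.034 without ko_125, and the median went down to -0.32 without wt_136. Map4k5 read -0.80 (SE 0.40) on its brightest probe and -0.06 and 0.06 on the other probes, Stk4 (MST1) read -0.51 (SE 0.26) and Map4k4 read 0.45 (SE 0.32), from 0.040 without wt_145 to 0.80 without wt_177.

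Below the MAP3Ks, 2 of 8 tested MAP2K, Jnk and p38 genes were above 0 and 6 below 0, with a median log2 fold change of -0.09. Map2k4, the direct substrate of several members, gave 58, 68, 78 and 41 units in the Dusp8-deficient arrays, against 55, 43 and 58 units in the controls, and its log2 fold change was 0.10 (SE 0.21). The groups overlapped over nearly their whole range. Map2k7, the other MAP2K of the Jnk branch, has no probe in the annotation used here. Map2k3, a MAP2K of the p38 branch, gave 30, 9, 16 and 7 units in the Dusp8-deficient arrays, against 6, 1 and -3 units in the controls. It was not detected in any control and passed the filter only through the Dusp8-deficient arrays, so its lack of overlap is not read as a difference. Its fitted log2 value was 0.60 with all arrays, 0.37 without ko_108 and 0.27 with an offset of 50 (adjusted p = 0.996 with all arrays, limma). Map2k6, also of the p38 branch, read -0.35 (SE 0.22), and Mapk9 (Jnk2) read -0.19 (SE 0.20) on its brightest probe and 0.49 (SE 0.30) and -0.08 (SE 0.21) on the others.

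Among Jnk scaffolds, which hold a MAP3K, a MAP2K and Jnk together, 5 of 8 tested genes were above 0 and 3 below 0, with a median of 0.09. Arrb2 read 0.44 (SE 0.45), and 0.00 without ko_148, Crkl read 0.18 (SE 0.19) and Sh3rf1 (POSH) read -0.20 (SE 0.24). The Jip scaffolds Mapk8ip1, Mapk8ip2 and Mapk8ip3 read 0.11, -0.13 and 0.21. Among 13 tested Jnk targets, 9 were above 0 and 4 below 0, with a median of 0.05. Bbc3, a pro-apoptotic gene induced downstream of Jun, read 0.88 (SE 0.34, unadjusted p = 0.0277, adjusted p = 0.996, limma) on its brightest probe and -0.11 and -0.23 on dimmer probes. Jun, the transcription factor that Jnk phosphorylates, gave 14, 47, 82 and 17 units in the Dusp8-deficient arrays, against 13, 6 and 19 units in the controls. The probe was detected in all 4 Dusp8-deficient arrays but not in wt_145, so it would have passed the filter through the Dusp8-deficient arrays alone. Its log2 fold change was 0.76 (SE 0.36), and 0.45 without ko_148. It was 0.42 with an offset of 50 and 1.08 with array weights. The 2 highest Jun arrays, ko_148 and ko_125, were also the 2 highest for Map3k13 and for the scaffold gene Arrb2. This match was picked after the values were seen and was not tested. Stmn1 read -0.34 (SE 0.21). Map1b, a microtubule-associated protein, was the fourth gene without overlap, chosen for mention after its values were seen, at 0.26 (SE 0.20).

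The cell type lists gave no call either. Their median log2 fold changes were -0.53 for 9 arcuate neuron markers, -0.12 for 10 neuron markers, 0.49 for 12 oligodendrocyte markers, 0.03 for 10 astrocyte markers, -0.08 for 8 microglia markers, -0.38 for 7 tanycyte and ependymal markers, -0.02 for 9 vascular markers and 0.48 for 3 pituitary markers. The pituitary value ran from 0.066 without wt_177 to 1.21 without ko_108 and was 0.054 without a detection filter. Without ko_108 the oligodendrocyte median was 0.19 and the arcuate median -0.24. In the same fit the 8 MAP3K probes had a median of 0.27, with 5 above 0 and 3 below 0, and none passed.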

How the data were processed

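Members and gene lists were chosen with earlier results of these data known. The main table holds intensities that the authors deposited as non-normalized signal, per the file headers. From the values, which are whole numbers and go below 0, a background had already been subtracted; the method is not stated. For every intensity the authors deposited a detection p-value, per the file headers. The columns name the genotype but no replicate number. The processed intensities that the authors deposited (median 21 over all columns together) served only as an alternative.

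Background correction, quantile normalisation and log2 transformation used neqc (limma 3.58.1, R 4.3.3, offset 16). Testing was limited to probes detected (p below 0.05) in 3 or more of the 7 arrays. Probes were named through the platform annotation (23978 with 1 gene, 1719 unnamed here), checked by Entrez ID against RefSeq. The contrast, Dusp8-deficient minus control, was tested two-sided with limma's lmFit and eBayes, with Benjamini-Hochberg adjustment over all tested probes; the steps were tested on simulated data. Each member probe is given. List genes use their brightest tested probe; those named are the 3 of smallest p per list, Map2k4 and Map2k7, and the Tab, Gadd45, Rac1, Cdc42 and Jip genes were added after their values were seen. The 11 alternatives changed background, normalisation, filter, variance model, weights, table, block or arrays. Samples are biological replicates per the labels, which name no batch. The number of arrays limits the precision.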

Additional observations from a re-analysis of the deposited data

Results flagged for a closer look

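In each of 29 probes (9 MAP3K probes, Dusp8 and 19 list genes) the 4 Dusp8-deficient arrays were examined for 1 value set apart from the rest by Dixon's criterion. Chance gives about 1 in 20 groups, or 1.45 of 29, and 1 was found. Map3k2, a MAP3K outside the 9 members, had a log2 level of 5.98 in ko_125, where ko_108, ko_148 and ko_168 lay between 4.66 and 4.86. The controls, 3 in number, were too few to examine.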

How the results depend on the processing

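No MAP3K probe and no gene of the 14 other lists passed under any of the alternatives. The number of probes past the threshold, 1 with all arrays, was 0 without a detection filter and in both fits of replicates 1 to 3, and 0 to 1 with 1 array left out. Dusp8 had an adjusted p of 0.141 without a filter (log2 fold change -2.52), 0.273 with the replicate block and 0.0899 without the block (-2.60 in both), and with 1 array left out it lost its call in 5 of 7 fits (without ko_148, ko_168 or any of the 3 controls, adjusted p 0.0560 to 0.111), with log2 fold changes of -2.65 to -2.40. Map3k7 turned to -0.044 with array weights and ran from -0.16 to 0.28 with 1 array left out, below 0 without ko_108 or ko_125. Map3k4 ran from -0.070 to 0.27 with 1 array left out. Requiring detection on all arrays left 4 MAP3K probes, without Map3k1, Map3k11, Map3k13 and the dimmest Map3k12 probe. Map3k1 ran from -0.86 to -0.45 over the alternatives that kept all arrays or used replicates 1 to 3. With 1 array left out, Araf ran from -0.13 to 0.64, Map3k2 from -0.13 to 0.37, Map3k3 from -0.068 to 0.24 and Map2k4 from -0.012 to 0.23, and 13 of the 19 list genes named by rule moved by over 1.5 times or changed sign. List medians moved by more than the spread between arrays for microglia (0.094 without a filter), Jnk scaffolds (-0.034 when detected on all arrays) and, in replicates 1 to 3 with and without the replicate block, for MAP2K, Jnk and p38 kinases (0.046) and astrocytes (0.27). With 1 array left out the medians ran from -0.040 to 0.15 for Jnk scaffolds, -0.53 to -0.11 for tanycyte and ependymal markers, -0.21 to 0.042 for MAP2K, Jnk and p38 kinases, -0.022 to 0.24 for astrocytes, -0.13 to 0.050 for microglia and -0.054 to 0.25 for Jnk targets. The causes were not tested. Replicate numbers come from the labels of the processed table. Same-numbered samples had correlations of deviations of -0.07, 0.07 and -0.0007 over tested probes, so the numbers were not taken as pairs. The fit without the block was added after seeing the data.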
